A study of Homo sapiens with 6 samples.

Results

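The 9 genes described here, HMOX1, NQO1, GCLM, GCLC, TXNRD1, SRXN1, SLC7A11, OSGIN1 and FTL, are classical antioxidant targets of the transcription factor NRF2. They were taken as a list of symbols that was drawn up with earlier results of these data known, so the list is not independent evidence of its direction. All 9 are among the 15651 genes of the expression table and passed the filter on low values that left 15246 genes. They were measured in MDA-MB-231, an established human triple-negative breast cancer (TNBC) line, grown in DMEM with 10% fetal bovine serum. RNA was sequenced from 3 cultures treated with the solvent DMSO and from 3 treated with BRL-50481, a nitroaromatic inhibitor of the cAMP-degrading phosphodiesterase PDE7A. The study's text and the treatment protocol of the labels give 50 μM for 72 h, but a tag of the labels has 5 μM for 48 h. A single cell line at 1 dose and 1 time was sequenced, so neither the order of events nor a dependence on dose can be read from these libraries.

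NRF2, encoded by NFE2L2, is held at a low level by KEAP1, which brings it to a CUL3 ubiquitin ligase. When electrophiles or oxidants modify KEAP1, NRF2 accumulates, pairs with a small MAF protein and binds antioxidant response elements in the control regions of its target genes, while the repressor BACH1 competes for the same elements. The targets supply cystine, glutathione, reducing power for thioredoxin, breakdown of haem and storage of iron. Most of this control acts on the NRF2 protein, so the NFE2L2 transcript is known to be a poor guide to NRF2 activity.

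Between 30750573 and 33446984 reads per library were assigned to genes. Values are given as normalized counts, the reads of a gene divided by a size factor of its library, and 1 read is worth 0.969 to 1.02 normalized counts. VIM, CD44 and AXL, 3 of 12 listed markers of this mesenchymal line, had DMSO means of 58840 ± 2498, 31414 ± 413 and 45015 ± 315 normalized counts (SD, n = 3). Of the 3 receptor genes listed as low in TNBC, PGR had 1.67 ± 1.52 and ESR1 was absent from the expression table. ERBB2 passed the filter and was higher with BRL-50481 (log2 fold change 0.19, adjusted p-value under 0.05 in limma). All 9 luminal genes listed also passed the filter, and 4 were higher and 4 lower with BRL-50481 at the same threshold. Of the 12 markers of the line, 8 were higher and 1 was lower. Of 8 leukocyte and endothelial genes listed, 4 were in the expression table and passed the filter, and 3 of these were higher. Among all genes tested, 28.9% were higher and 29.8% lower. PDE7A itself had 406 ± 2.06 normalized counts in DMSO and 298 ± 40.6 with BRL-50481 (mean ± SD, 3 libraries per group). DMSO replicate 1 lay farthest from its group, with an SD of 0.141 for the log2 deviations of its genes from the group mean against 0.0791 to 0.119 in the other libraries, so results that rest on it are also given without it. Groups were compared with limma after adding 1 and taking log2, and p-values were adjusted by the Benjamini-Hochberg method over all 15246 genes.

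Of the 9 targets, 8 were lower in BRL-50481-treated cells at an adjusted p-value under 0.05, 0 were higher, and SLC7A11 did not pass the test. Among all genes tested, 29.8% were lower and 28.9% were higher, so that 58.7% moved in one direction or the other. The median log2 fold change of the 9 genes was −0.62, beside 0.015 over all genes. HMOX1 and FTL were the 2 genes of the list below −1, a criterion met with the adjusted p-value by 2.98% of all genes on the lower side. For 8 of the 9 genes all treated libraries were below all control libraries, as was the case for 32.3% of all genes, and 31.9% of all genes were separated in the other direction. In RNA from whole cultures, a lower level per cell cannot be told apart from a change in the share of cells that express a gene.

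**Figure D1:**
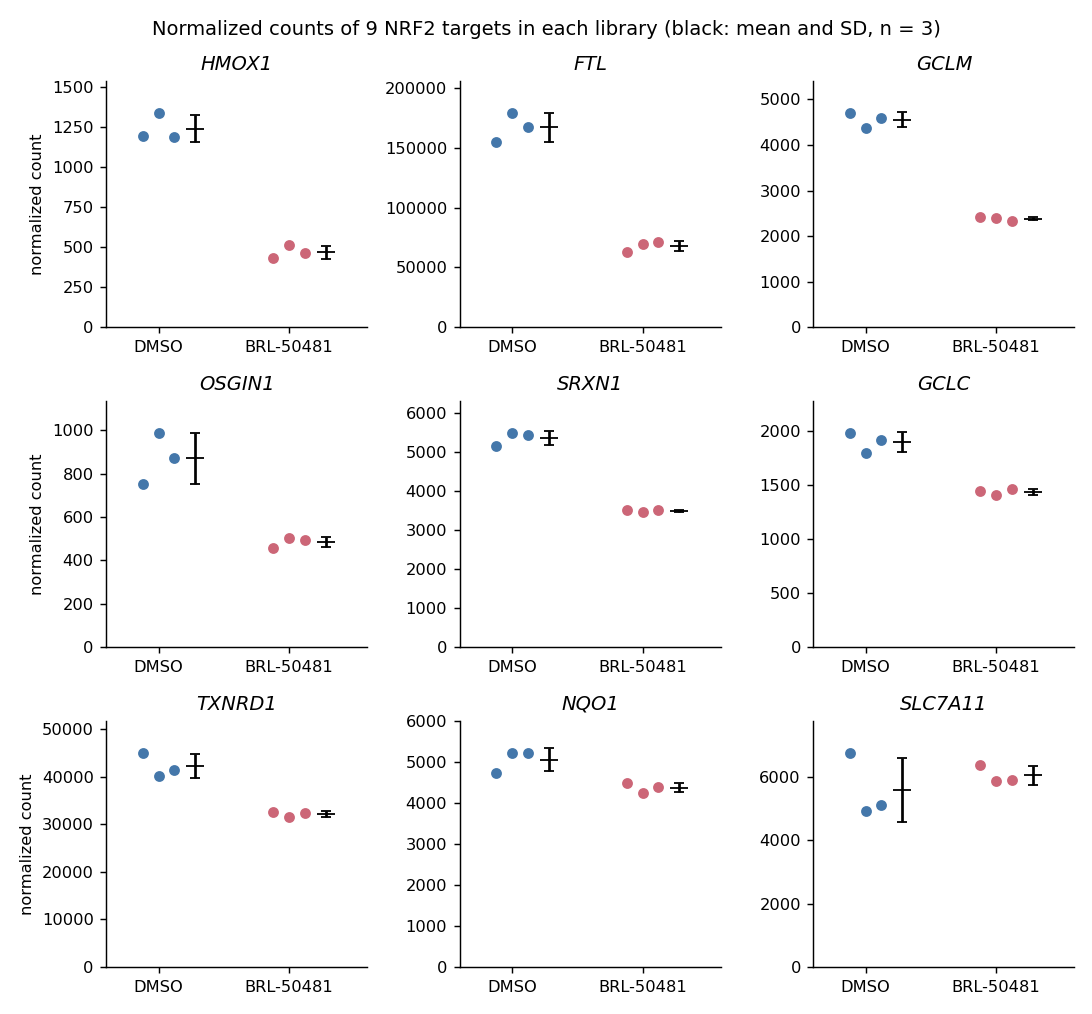
Normalized counts of the 9 genes in each library, on axes that start at 0, with DMSO in blue and BRL-50481 in red and with the mean and SD (n = 3) in black, ordered from the largest fall to the smallest change. The red points lie below the blue points in every panel except that of SLC7A11, where DMSO replicate 1 lies at 6769.9 and the other DMSO libraries at 4917 and 5112.

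HMOX1 encodes the inducible haem oxygenase, which opens the haem ring and releases iron, carbon monoxide and biliverdin. The gene lies on chromosome 22 of hg38 from 35380361 to 35394214 in the GENCODE annotation. It had 1193, 1335 and 1186 normalized counts in the DMSO libraries and 431, 511 and 462 in the BRL-50481 libraries. The highest BRL-50481 library thus had less than any DMSO library by a wide margin. The log2 fold change was −1.40 (95% interval −1.58 to −1.23, standard error 0.0813, adjusted p = 2.28e-08 in limma), which leaves 37.8% of the DMSO level. HMOX2, the constitutive haem oxygenase, went from 1734 ± 94.9 to 1255 ± 70.1 normalized counts (mean ± SD, 3 libraries per group), giving a log2 fold change of −0.47 (adjusted p = 4.41e-05 in limma). The ratio of HMOX1 to HMOX2 within a library was 0.734, 0.747 and 0.663 in DMSO and 0.364, 0.408 and 0.349 after treatment, so that the ratio was lower in every treated library than in any control library (p = 0.1, two-sided exact permutation test, the smallest p that 3 libraries against 3 allow).

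FTL, the light chain of the iron storage protein ferritin, lies on chromosome 19 from 48965309 to 48966879 and was by far the most abundant gene of the list. The DMSO libraries held 154646, 178825 and 167626 normalized counts and the BRL-50481 libraries 62911, 69253 and 71159.5. Its rank among all genes by mean normalized count was 3 in DMSO and 16 after treatment. FTL took 0.511% ± 0.0354 of all reads on genes in DMSO and 0.219% ± 0.0136 with BRL-50481 (mean ± SD, 3 libraries per group), and this makes up most of the fall of the 9 genes together from 0.716% ± 0.0255 to 0.383% ± 0.0114. The log2 fold change was −1.30 (standard error 0.0608, adjusted p = 3.85e-09 in limma). With quantile normalization it was −0.89, a setting that gives the genes at the same rank in each library the same value.

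FTH1, the heavy chain that oxidizes iron as it enters the ferritin shell, went from 71056 ± 4246 to 40511 ± 1442 normalized counts (mean ± SD, 3 libraries per group), giving a log2 fold change of −0.81 (adjusted p = 5.1e-08 in limma). The ratio of FTL to FTH1 was 2.33, 2.40 and 2.31 in the DMSO libraries and 1.56, 1.77 and 1.69 in the BRL-50481 libraries, with no overlap (exact permutation p = 0.1). The difference of the log2 ratios was −0.49, and as for all ratios here the exact test could not reach the threshold. GENCODE lists 16 copies of FTL and 25 of FTH1 among pseudogenes, and reads that align equally well to several places are not counted by the authors' counter at its default setting, so the levels of both genes are uncertain.

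Glutamate-cysteine ligase makes the first and rate-limiting bond of glutathione and consists of a catalytic subunit, GCLC (chromosome 6, 53497341 to 53616970), and a modifier subunit, GCLM (chromosome 1, 93885199 to 93909456). GCLM had 4696, 4366 and 4589 normalized counts in DMSO and 2414, 2394 and 2339 after treatment. GCLC had 1982, 1795 and 1919 in DMSO and 1441, 1408 and 1467 after treatment. Both groups were tight and did not overlap for either subunit. GCLM showed a log2 fold change of −0.93 (adjusted p = 1.2e-08 in limma, standard error 0.0504) and GCLC one of −0.40 (adjusted p = 6.54e-05, standard error 0.0585). The ratio of the modifier to the catalytic subunit, in normalized counts, was 2.37, 2.43 and 2.39 in the DMSO libraries and 1.68, 1.70 and 1.59 in the BRL-50481 libraries, again without overlap (difference of log2 ratios −0.53, exact permutation p = 0.1). In GENCODE an exon of another gene overlaps GCLC on the same strand, so reads there could be ambiguous.

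**Figure D2:**
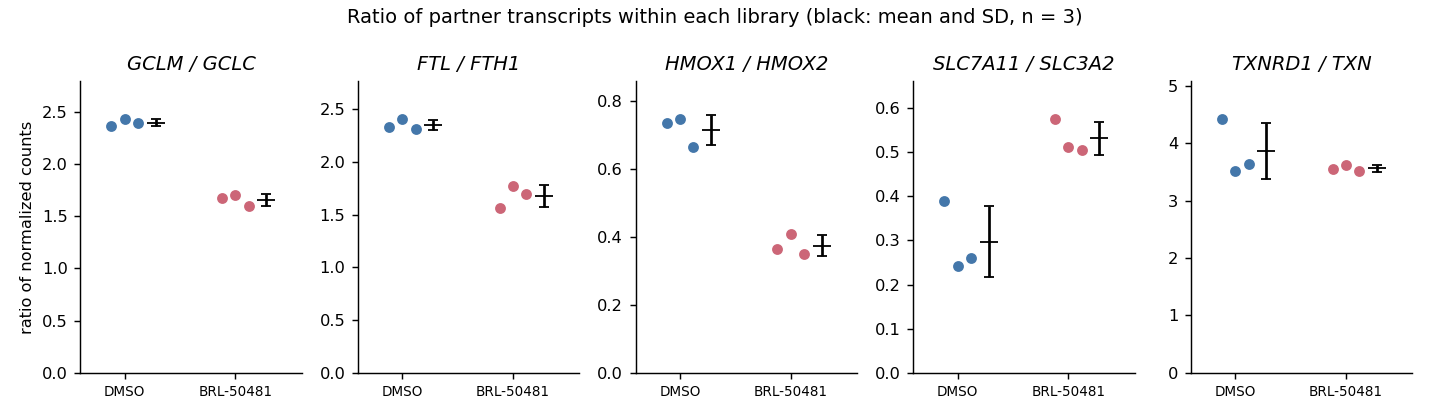
Ratio of the normalized counts of 2 partner transcripts within each library, on axes that start at 0, with DMSO in blue, BRL-50481 in red and the mean and SD (n = 3) in black. The ratios of GCLM to GCLC, FTL to FTH1 and HMOX1 to HMOX2 were lower in every BRL-50481 library, that of SLC7A11 to SLC3A2 was higher, and that of TXNRD1 to TXN overlapped.

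SLC7A11 (chromosome 4, 138164097 to 138242349) encodes the transport chain of system xc-, which exchanges glutamate for cystine, the source of the cysteine in glutathione. It had 6769.9, 4917 and 5112 normalized counts in DMSO and 6392, 5863 and 5915 after treatment. The 2 groups overlap because DMSO replicate 1 lies above all treated libraries. The log2 fold change was 0.13 (95% interval −0.077 to 0.33, standard error 0.0943, adjusted p = 0.265 in limma), which does not exclude a moderate rise. Without DMSO replicate 1 it was 0.27 (adjusted p = 2.76e-07 in limma), and without DMSO replicate 2 it was 0.041 (adjusted p = 0.713). After a correction for transcript length and GC content it was −0.094 (adjusted p = 0.0727).

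SLC3A2, the heavy chain that anchors SLC7A11 and several other amino acid carriers in the membrane, was lower after treatment. It went from 19161 ± 1532 to 11424 ± 290 normalized counts (mean ± SD, 3 libraries per group), giving a log2 fold change of −0.74 (adjusted p = 2.27e-07 in limma). The ratio of SLC7A11 to SLC3A2 within a library was 0.389, 0.242 and 0.259 in DMSO and 0.575, 0.512 and 0.506 after treatment, so every treated library lay above every control library (difference of log2 ratios 0.87, exact permutation p = 0.1). Without DMSO replicate 1 the difference was 1.08.

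TXNRD1 (chromosome 12, 104215779 to 104350307) is the cytosolic thioredoxin reductase, a selenoprotein that passes electrons from NADPH to thioredoxin. It had 45081, 40253 and 41351 normalized counts in DMSO and 32693, 31512 and 32431 after treatment, with a gap between the groups that is wider than the spread of either. The log2 fold change was −0.39 (standard error 0.0494, adjusted p = 1.89e-05 in limma), and −0.23 with quantile normalization, where it also passed the test. TXN, the thioredoxin that it reduces, went from 11000.1 ± 697 to 9051 ± 314 normalized counts (mean ± SD, 3 libraries per group), giving a log2 fold change of −0.28 (adjusted p = 0.000592 in limma). The ratio of TXNRD1 to TXN overlapped between the groups, at 4.42, 3.51 and 3.65 in DMSO and 3.55, 3.63 and 3.51 after treatment (exact permutation p = 0.4). A difference between the changes of the reductase and its substrate was thus not detectable here. After Benjamini-Hochberg adjustment of the exact permutation p-values over the 5 ratios tested, the 4 ratios with p = 0.1 had an adjusted p of 0.125.

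SRXN1 (chromosome 20, 646615 to 653200) encodes sulfiredoxin, which restores peroxiredoxins that peroxide has inactivated. Its normalized counts were 5170.4, 5499 and 5453 in DMSO and 3510.4, 3461 and 3521 after treatment. The treated libraries were close to one another and far below the control libraries, and the log2 fold change was −0.62 (standard error 0.0478, adjusted p = 2.43e-07 in limma). An exon of another annotated gene overlaps SRXN1 on the same strand.

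OSGIN1 (chromosome 16, 83931311 to 83966332) encodes an oxidative stress-induced growth inhibitor. It had 753, 988 and 873 normalized counts in DMSO and 457, 502 and 496 after treatment. This is the least abundant gene of the list per length and, apart from SLC7A11, the one with the widest spread in DMSO, but the groups did not overlap. The log2 fold change was −0.84 (standard error 0.0949, adjusted p = 6.95e-06 in limma), and −0.94 without DMSO replicate 1. Exons of MLYCD overlap OSGIN1 on the same strand in GENCODE.

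NQO1 (chromosome 16, 69706996 to 69726668) is the quinone reductase that transfers 2 electrons from NADH or NADPH, and a textbook reporter of NRF2. It is also known to reduce some nitroaromatic compounds. It had 4743, 5234 and 5225 normalized counts in DMSO and 4495, 4262 and 4388 after treatment. The lowest DMSO library was close to the highest treated library, and the fall was the smallest of the 8, with a log2 fold change of −0.21 (95% interval −0.32 to −0.094, standard error 0.0531, adjusted p = 0.0043 in limma). When any 1 library was dropped the log2 fold change stayed between −0.26 and −0.18, and the adjusted p-value reached 0.0294.

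**Figure D3:**
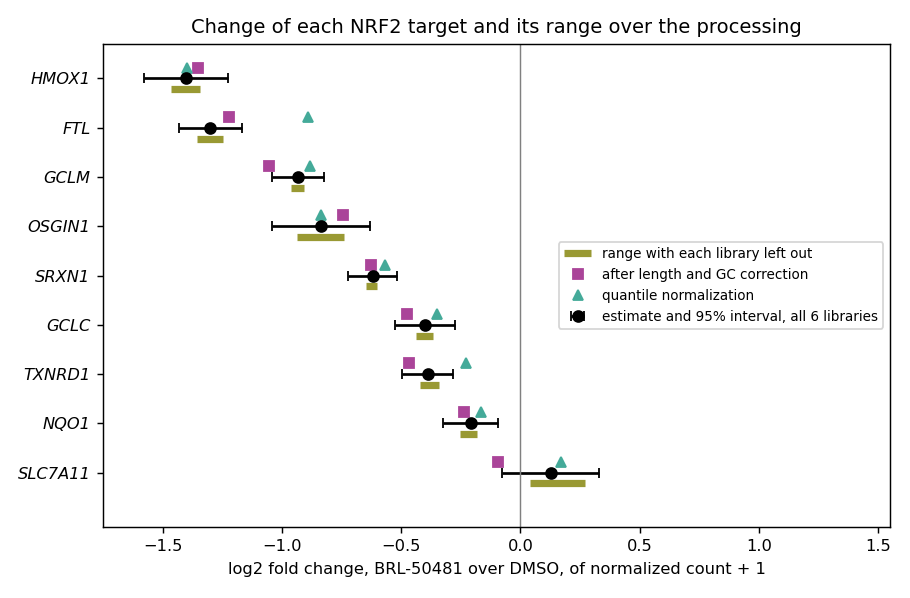
Log2 fold change of each gene, BRL-50481 over DMSO (normalized counts with 1 added), with the 95% interval from limma in black, the range over the 6 fits that each left out 1 library in olive, and the values after quantile normalization (triangles) and after a correction for transcript length and GC content (squares). All marks of 8 genes lie left of 0, whereas those of SLC7A11 lie on both sides.

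The 9 genes were then placed in the order of their changes. This order came from the same libraries, so the direction of each neighbour ratio was fixed beforehand. The p-values of these ratios therefore do not test the order. Those of HMOX1 and FTL, of GCLM and OSGIN1, and of GCLC and TXNRD1 could not be separated, because the within-library ratios of these neighbours overlapped between the groups. For TXNRD1 and GCLC the ratio was 22.2 ± 0.620 in DMSO and 22.4 ± 0.290 with BRL-50481 (mean ± SD, 3 libraries per group), nearly the same in all 6 libraries. Between FTL and GCLM, OSGIN1 and SRXN1, SRXN1 and GCLC, and TXNRD1 and NQO1 the ratios did not overlap (exact permutation p = 0.1 for each, adjusted p = 0.2 over the 8 neighbours). SLC7A11 and NQO1, the last neighbours, overlapped because of DMSO replicate 1. The spread between replicates was wider in DMSO, where the coefficient of variation ran from 3.31% to 18.2%, than after treatment, where it ran from 0.920% to 8.59%.

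Levels were compared between genes as normalized counts per kb of the canonical GENCODE transcript, which assumes that this transcript is the one expressed. In DMSO, FTL had 191771 ± 13893 and TXNRD1 10940 ± 656, followed by SRXN1 with 2126 ± 70.4 and NQO1 with 2010 ± 111 (mean ± SD, 3 libraries per group). GCLM (932 ± 34.5), HMOX1 (797 ± 54.2), SLC7A11 (581 ± 106), GCLC (502 ± 25.3) and OSGIN1 (453 ± 61.2) came last. SRXN1 and NQO1 overlapped, as did SLC7A11 with GCLC and GCLC with OSGIN1. After treatment no neighbours in the order overlapped. NQO1 (1738 ± 46.3) stood above SRXN1 (1384 ± 12.7), and SLC7A11 (628 ± 30.2) above GCLM (488 ± 7.98). HMOX1 (301 ± 25.9) lay below GCLC (380 ± 7.73), whereas it lay above GCLC in DMSO.

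**Figure D4:**
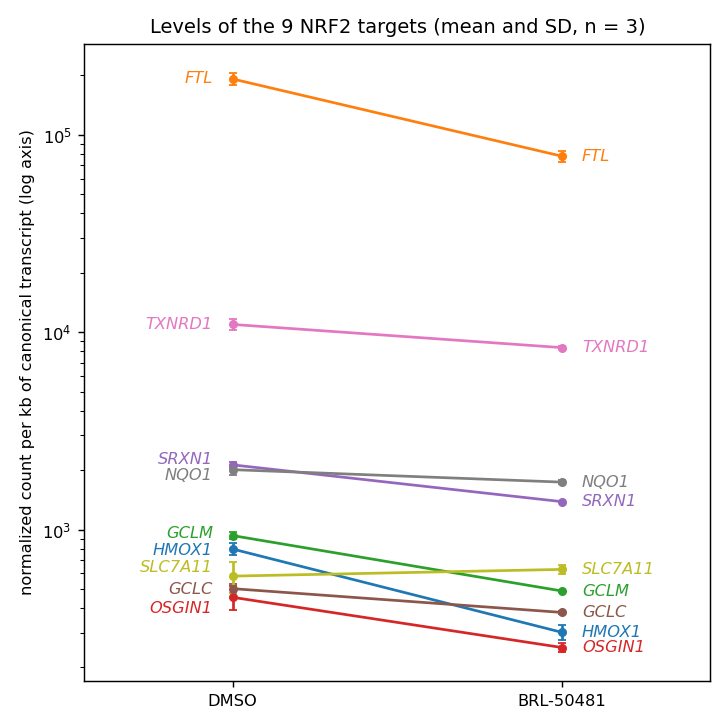
Normalized counts per kb of canonical transcript for the 9 genes in DMSO and BRL-50481, as mean and SD (n = 3) on a log axis. The lines of HMOX1 and GCLM cross those of SLC7A11, and HMOX1 also falls below GCLC, while FTL and TXNRD1 stay above the others.

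The region just before the start of a gene can show whether genes that move together share an element. RefSeq promoter windows, from 250 bases before to 50 bases after a start, were available for 7 of the 9 genes, and not for HMOX1 and SLC7A11. The core of the antioxidant response element, TGACNNNGC on either strand, was found in the windows of 2 of these genes, GCLM and TXNRD1, and in 13.3% of all 35116 windows. The related element TGANTCAGC, which contains the AP-1 site TGANTCA and is bound by complexes with small MAF proteins, was found in 1, OSGIN1, and in 1.36% of all windows. Each stretch below runs 5′ to 3′ on the strand of its gene over the 100 bases that end 26 bases before the RefSeq start (GRCh38.p14), with the match in capitals, and FTL is shown as a gene with a large fall and no match.
GCLM, chr1:93909456-93909555, minus strand: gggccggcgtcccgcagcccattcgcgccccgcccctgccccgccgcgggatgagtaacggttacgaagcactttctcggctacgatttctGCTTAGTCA
TXNRD1, chr12:104215654-104215753, plus strand: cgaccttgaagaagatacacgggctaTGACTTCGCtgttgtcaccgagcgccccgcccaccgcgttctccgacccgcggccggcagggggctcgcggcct
OSGIN1, chr16:83953115-83953214, plus strand: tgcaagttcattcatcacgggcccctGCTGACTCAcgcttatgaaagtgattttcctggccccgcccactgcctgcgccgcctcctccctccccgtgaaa
FTL, chr19:48965184-48965283, plus strand: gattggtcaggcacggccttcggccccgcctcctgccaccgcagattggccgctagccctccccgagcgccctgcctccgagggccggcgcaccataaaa
The capitals in GCLM read TGACTAAGC on the opposite strand, and those in OSGIN1 read TGAGTCAGC there, while TXNRD1 has TGACTTCGC on its own strand. A further TXNRD1 match ends on the first transcribed base, and another lies in the window of a second start of that gene. Gene counts do not tell the TXNRD1 starts apart. A match describes the letters only, and 4 genes that fell (FTL, SRXN1, GCLC and NQO1) had none in these windows, where elements farther away were not searched.

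For the NRF2 transcript itself no change was detectable. NFE2L2 had 5904 ± 123 normalized counts in DMSO and 5918 ± 75.2 with BRL-50481 (mean ± SD, 3 libraries per group), a log2 fold change of 0.0035 with a standard error of 0.0449 (adjusted p = 0.954 in limma). KEAP1, its inhibitor, went from 2317 ± 207 to 1919 ± 128, a log2 fold change of −0.27 (adjusted p = 0.00581), and BACH1, the competing repressor, from 4842 ± 739 to 6545 ± 168, a log2 fold change of 0.45 (adjusted p = 0.000433). All 3 small MAF genes fell, MAFG by 0.82, MAFF by 0.61 and MAFK by 0.59 on the log2 scale, each at an adjusted p-value of 4.39e-06 or less. SQSTM1, whose product p62 draws KEAP1 into autophagy and which is itself a known NRF2 target, fell from 48600 ± 2745 to 28541 ± 693 normalized counts, a log2 fold change of −0.77 (adjusted p = 5.39e-08). NFE2L1, an NRF2 relative that drives proteasome genes, rose by 0.43 (adjusted p = 4.67e-06). Of the 14 regulators listed, 5 were higher, 7 lower and 2 not called, beside 28.9% higher and 29.8% lower among all genes.

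A list of further genes known as NRF2 targets was mixed. It leaves out known targets placed in other lists, such as SQSTM1, which fell as given above. The genes of the other lists were not sorted by whether they are NRF2 targets. The mixed result therefore holds for this list only. Of 21 listed, 3 were higher, 7 were lower and 11 did not pass the test, at a median log2 difference of −0.13. The shares among all genes tested were 28.9% higher and 29.8% lower. AKR1B1, an aldose reductase, fell by 0.49 (adjusted p = 2.82e-06 in limma) and CBR1, a carbonyl reductase, by 0.55 (adjusted p = 3.52e-06). ABCB6, a porphyrin transporter, rose by 0.81 (adjusted p = 4.45e-05). The largest rise of the list was at a very low level, that of ALDH3A1. It went from 3.34 ± 2.12 to 19.8 ± 2.97 normalized counts (2.40, adjusted p = 0.000887 in limma), without overlap. ABCC1, an exporter of glutathione conjugates, showed a log2 fold change of −0.13 (adjusted p = 0.0958). The aldo-keto reductases AKR1C1 and AKR1C2, strongly induced by NRF2 in many cells, had DMSO means of 59.7 ± 10.3 and 16.0 ± 1.68 normalized counts and did not pass the test, though AKR1C1 did without BRL-50481 replicate 3 (0.55, adjusted p = 0.0431 in limma). These 2 are near-identical, so some of their reads could align equally well to both.

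**Figure D5:**
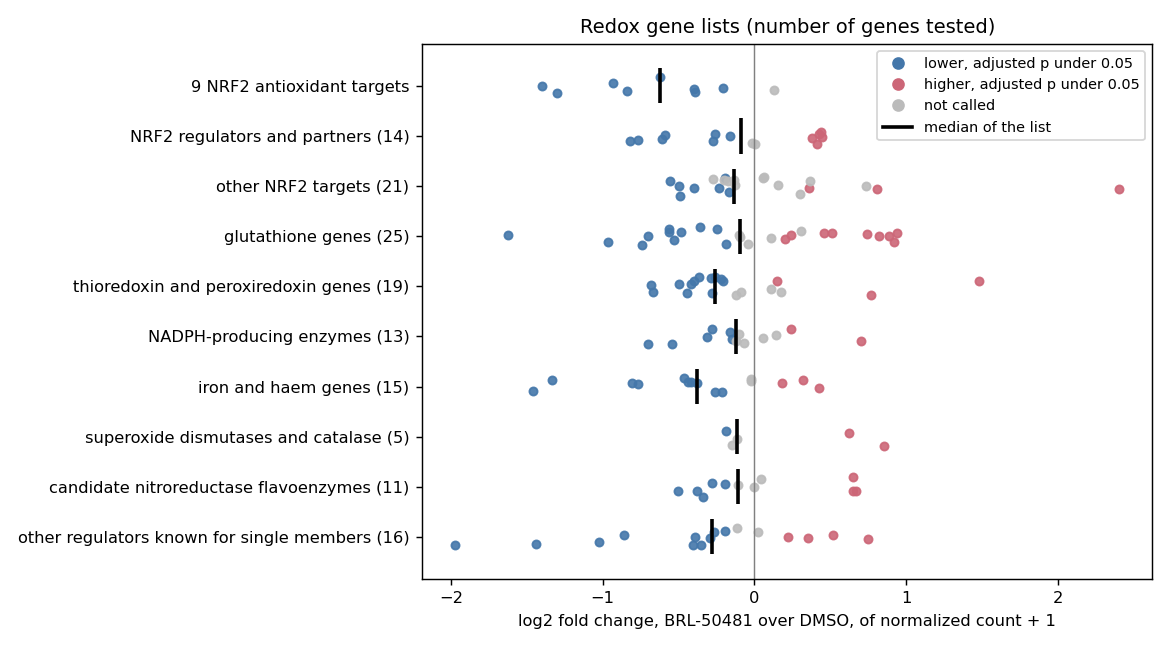
Log2 fold change, BRL-50481 over DMSO, of the genes tested in 10 redox lists, 1 point per gene, coloured by whether the gene was lower (blue), higher (red) or not called (grey) at an adjusted p-value of 0.05, with the list median as a black bar. The 9 NRF2 antioxidant targets have a median of −0.62, and the medians of the other lists lie between −0.38 and −0.090.

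Glutathione genes went both ways. Of 25 tested, 9 were higher and 11 lower, at a median log2 difference of −0.097, beside 28.9% and 29.8% of all genes. GSS, which adds glycine in the last step of glutathione synthesis, rose from 2362 ± 46.4 to 3254 ± 112 normalized counts (log2 fold change 0.46, adjusted p = 5.75e-06 in limma), opposite to both subunits of the enzyme before it. GSR, which regenerates glutathione with NADPH, fell by 0.56 on the log2 scale (adjusted p = 8.8e-07). CHAC2 and CHAC1, which degrade glutathione, fell by 1.62 and 0.96 on the log2 scale (adjusted p = 1.2e-08 and 3.14e-07). GSTM2, a glutathione transferase with near-identical relatives to which its reads could also align, rose by 0.94 (adjusted p = 8.37e-05). GPX4, the peroxidase that clears lipid peroxides, had overlapping groups and a log2 fold change of −0.19 (adjusted p = 0.0248), which did not pass the test without DMSO replicate 2 or 3 or BRL-50481 replicate 1 or 2 (adjusted p up to 0.107) or in limma without a trend (adjusted p = 0.122), and was −0.078 after the length and GC correction.

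In the thioredoxin and peroxiredoxin list, 12 of 19 genes were lower and 3 higher, at a median log2 difference of −0.26. The shares among all genes were 29.8% lower and 28.9% higher. PRDX1, a cytosolic peroxiredoxin and a substrate of sulfiredoxin, fell from 14811 ± 904 to 9226 ± 202 normalized counts (−0.68, adjusted p = 1.96e-07 in limma). TXNIP, the thioredoxin-binding arrestin, fell by 0.40 on the log2 scale (adjusted p = 2.97e-06), or by 0.12 with quantile normalization. TXNRD3, a thioredoxin-glutathione reductase at a low level, rose from 104 ± 18.5 to 291 ± 22.2 normalized counts (1.48, adjusted p = 1.3e-06). SESN2, a sestrin, rose by 0.77 (adjusted p = 2.36e-07).

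Of 13 genes listed for the supply of NADPH, 6 were lower, 2 were higher and 5 were not called. Over all genes, 29.8% were lower and 28.9% higher. The list includes TKT, TALDO1 and NADK, whose enzymes do not make NADPH themselves, and TKT and TALDO1 are among the lower. TKT, a transketolase, fell by 0.31 on the log2 scale (adjusted p = 0.000196 in limma). ME2, a mitochondrial malic enzyme, fell by 0.70 (adjusted p = 5.18e-07), while IDH2, the mitochondrial isocitrate dehydrogenase, rose by 0.70 (adjusted p = 9.85e-06). MTHFD1 showed a log2 fold change of −0.099 (adjusted p = 0.0784).

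Most of the other iron and haem genes were lower. Of 15 listed, 10 were lower and 3 higher, at a median log2 difference of −0.38, beside 29.8% and 28.9% of all genes. TFRC, the transferrin receptor that takes up iron, went from 25578 ± 2980 to 9280.4 ± 60.3 normalized counts (mean ± SD, 3 libraries per group), giving a log2 fold change of −1.46 (adjusted p = 3.74e-09 in limma). Iron regulatory proteins are known to stabilize the TFRC transcript and to block translation of the ferritin chains, and here the transcripts of the receptor and of both chains fell together. BLVRB, a reductase of the beta isomer of biliverdin, fell by 0.76 (adjusted p = 1.85e-06). BLVRA, which reduces the alpha isomer that haem oxygenase makes, fell by 0.21 (adjusted p = 0.0142 in limma). With 1 library left out, the adjusted p-value of BLVRA reached 0.0783.

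Several genes of the list also answer to other factors. SLC7A11 is a known target of ATF4, and HMOX1 of AP-1 and stress factors. ATF4 itself went from 12259 ± 847 to 9587 ± 163 normalized counts (−0.35, adjusted p = 8.41e-05 in limma). Among its known targets in the list, ASNS fell by 0.86 on the log2 scale (adjusted p = 7.1e-09) and ATF3 by 1.02 (adjusted p = 6.46e-09). TRIB3, also a known target, rose by 0.75 (adjusted p = 1.75e-07). Of known ATF4 targets placed in other lists, CHAC1 and SLC3A2 fell and SESN2 rose, as given above. The 6 AP-1 genes of the list went both ways, with 4 lower and 2 higher. FOS went from 345 ± 16.7 to 127 ± 13.5 (−1.44, adjusted p = 2.57e-07), and FOSL1, which encodes FRA-1, fell by 0.26 (adjusted p = 0.00041), while FOSL2 rose from 4308 ± 344 to 6156 ± 48.8 (0.52, adjusted p = 5.55e-06). The other gene called higher, JUND, had overlapping groups (0.35, adjusted p = 0.0102) and did not pass the test without BRL-50481 replicate 3 (adjusted p = 0.0557) or in limma without a trend (adjusted p = 0.0855). In all, 10 of the 16 genes in this list of ATF4, AP-1 and other stress genes were lower and 4 were higher. The shares among all genes were 29.8% lower and 28.9% higher. The part of these stress genes in the changes of the 9 targets was not tested.

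Enzymes that can pass electrons to nitro groups are of interest because the drug carries one. Of 11 candidate flavoenzymes and related reductases, 5 were lower, 3 were higher and 3 were not called. Over all genes, 29.8% were lower and 28.9% higher. AOX1, an aldehyde oxidase, rose from 2014 ± 106 to 3208 ± 89.5 normalized counts (0.67, adjusted p = 4.73e-07 in limma). POR, the reductase of the cytochrome P450 enzymes, fell by 0.38 on the log2 scale (adjusted p = 0.000419) and MTRR by 0.50 (adjusted p = 4.39e-06). CYB5R3, a cytochrome b5 reductase, showed a log2 fold change of 0.044 (adjusted p = 0.579).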

How the data were processed

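RNA from 3 DMSO-treated and 3 BRL-50481-treated MDA-MB-231 cultures was analysed from 1 deposited table. The authors' Methods describe single-end sequencing (76 bases), alignment with STAR 2.7.1a on hg38, assignment to UCSC genes by htseq-count in reverse-strand mode, and DESeq2 1.28. The deposited signal, called normalized count here, is a gene's reads over a size factor set for each library. The authors' own fold changes and p-values in the table were not used. Every value was a whole multiple of 1 read to within 0.001, so the reads could be recovered (100% of 93906 values).

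As in the Methods, a gene was kept where 3 or more libraries reached a normalized count of 4, which left out 405. Log2 values (pseudocount 1) were compared with limma 3.58.1 in R 4.3.3 (eBayes with trend, group as the only term) at an adjusted p-value of 0.05. Ratios within libraries were compared with exact permutation tests. Positions, transcript lengths and GC content came from GENCODE release 44 (96.5% of genes matched) and promoters from RefSeq. The fits were tested on simulated data. Alternatives were 2 further pseudocounts, 2 filters, 2 scalings, no trend, edgeR 4.0.16 and DESeq2 1.42.0 on recovered reads, the replicate block, a length and GC correction by loess, and leaving out each library. On recovered reads, edgeR called 4358 genes higher and 4574 lower.

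The 9 genes and all lists were chosen with earlier results of these data known. All 9 are named, with fixed partners, and of each other list the 3 largest called changes at a mean of 100 or more and the 2 most abundant genes. MAFK, TRIB3, FOSL2, JUND, AKR1C1, AKR1C2, ALDH3A1, TALDO1, NADK, BLVRA, VIM, CD44, AXL, PGR, ESR1 and ERBB2 are named outside this rule or after their values were seen. One gene that this rule names is not reported here.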

Additional observations from a re-analysis of the deposited data

How the results depend on the processing

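The 8 genes that fell were lower at an adjusted p-value under 0.05 in all 17 alternatives, including edgeR and DESeq2 on recovered reads. Among the 9 genes only SLC7A11 changed its call or its direction, at 0.27 without DMSO replicate 1 (range 0.041 to 0.27 with each library left out) and −0.094 after the length and GC correction. Of the other genes named, NFE2L2 lay at −0.023 after that correction and between −0.0073 and 0.021 with each library left out. CYB5R3 lay between −0.030 and 0.10 and AKR1C2 between −0.057 and 0.34 with each library left out, and AKR1C2 at −0.10 with quantile normalization, none past the test. ABCC1 and MTHFD1 passed after the correction, at −0.24 and −0.14. With the replicate number as a block, 4440 genes were higher and 4589 lower, against 4400 and 4546, and the block changed no call among the 9 genes. Same-numbered libraries deviated together only weakly (r = 0.12, 0.10 and 0.051), but 5 of the 6 libraries correlated best with their own number. A pairing by number is thus possible, and the main fit and the ratio tests did not use it. With 3 libraries per group the 95% interval of SLC7A11 ran from −0.077 to 0.33, and protein levels, NRF2 activity and oxidants were not measured in these libraries.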

Other observations

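Superoxide dismutases and catalase, which are not classical NRF2 targets, were compared as a further list of 5 genes. Of these, 2 were higher, 1 was lower and 2 were not called, beside 28.9% higher and 29.8% lower among all genes. CAT, which breaks down hydrogen peroxide in peroxisomes, rose from 873 ± 53.6 to 1345 ± 74.4 normalized counts (mean ± SD, 3 libraries per group), or by 0.62 on the log2 scale (adjusted p = 6.1e-06 in limma), with no overlap between the groups. SOD3, the extracellular dismutase, had 154, 207 and 205 normalized counts in DMSO and 316, 328 and 374 in BRL-50481 (log2 fold change 0.85, adjusted p = 7.38e-05). SOD1, the cytosolic enzyme, fell by 0.19 on the log2 scale (adjusted p = 0.0107), which did not pass the test without DMSO replicate 3 (0.0579), without BRL-50481 replicate 2 (0.0557), with quantile normalization (−0.14, adjusted p = 0.0578) or in limma without a trend (adjusted p = 0.0509). SOD2, the mitochondrial enzyme, showed a log2 fold change of −0.12 (adjusted p = 0.148), and of −0.39 after the length and GC correction, where it passed the test, as it did without DMSO replicate 2 (−0.18, adjusted p = 0.0273).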
